A study of Mus musculus with 2 samples.

Results

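The cells described here are mammillary-type neurons of the newborn mouse hypothalamus that carried transcripts of Hopx or Rprm. They were chosen by counts of unique molecular identifiers (UMIs, 1 per captured RNA molecule): at least 300 detected genes, at least 2 Foxb1 UMIs, at least 2 UMIs of Hopx and Rprm summed, fewer than 2 Nts UMIs and fewer than 2 UMIs of Emx2 and Fezf2 summed. This rule found 604 cells, out of 5260 cells with at least 300 genes and 5283 deposited barcodes. The comparison set is the other 928 cells with at least 2 Foxb1 UMIs. Of these, 226 had at least 2 Nts UMIs (Nts cells), 66 others had at least 2 UMIs of Emx2 and Fezf2 summed (Emx2 or Fezf2 cells), and 636 had neither and at most 1 Hopx or Rprm UMI (remaining Foxb1 cells).

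The study asks how losing a copy of Sim1 affects hypothalamic neurons. Cells were profiled by Drop-seq, in which single cells are caught in droplets with barcoded beads and the 3' ends of their transcripts are sequenced. The Sim1 heterozygous library (Sim1-Cre;tdTomato+/-;Sim1+/-, written Sim1+/- beside values) lacked 1 copy of Sim1, and the control library (Sim1-Cre;tdTomato+/-) did not carry that allele. Both came from CD-1 mice of postnatal day 1 to 4, and each pooled 6 pups. All pups carried Sim1-Cre and the Ai14 reporter, so cells that had expressed Cre from the Sim1 driver, or descended from such cells, were red and could be sorted. With 1 library per genotype there was no replicate check. Differences between genotypes below are differences between 2 libraries, no p-value was computed, and age mix, sex and preparation cannot be told apart from genotype.

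The mammillary bodies lie at the back of the hypothalamus and send glutamatergic axons to the anterior thalamus as part of the memory circuit. Foxb1, a forkhead transcription factor, marks their neurons and is needed for them to form normally, and SIM1, a bHLH-PAS factor, acts in the development of their axons. Rprm encodes reprimo, a p53-induced protein that holds cells in G2, and Hopx encodes a small homeodomain protein that does not bind DNA and works with serum response factor. On mm10, Foxb1 lies at chr9:69757710-69760940, Rprm at chr2:54084093-54085552 and Hopx at chr5:77086988-77115121, all on the minus strand.

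The cells chosen were mostly Rprm cells. A Rprm UMI was present in 370 of 376 members in the Sim1 heterozygous library (98.4%) and in 218 of 228 in the control library (95.6%). A Hopx UMI was present in 127 members (33.8%) of the Sim1 heterozygous library and in 64 (28.1%) of the control library. Summed over members, Rprm had 2658 UMIs and Hopx 271 in the Sim1 heterozygous library, against 1258 and 110 in the control library. Hopx without Rprm was found in 6 members of the Sim1 heterozygous library and 10 of the control library, and both genes in 121 (Sim1+/-) and 54 (control). The label therefore rests on Rprm for nearly all cells. These values used the rule and describe it.

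The threshold fell inside a continuous range. In the Sim1 heterozygous library 57 members had exactly 2 Hopx plus Rprm UMIs and 223 (59.3%) had 5 or more, while 80 cells that met all other limits had 1. In the control library 45 members had exactly 2 and 115 (50.4%) had 5 or more, while 77 cells had 1.

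**Figure D1:**
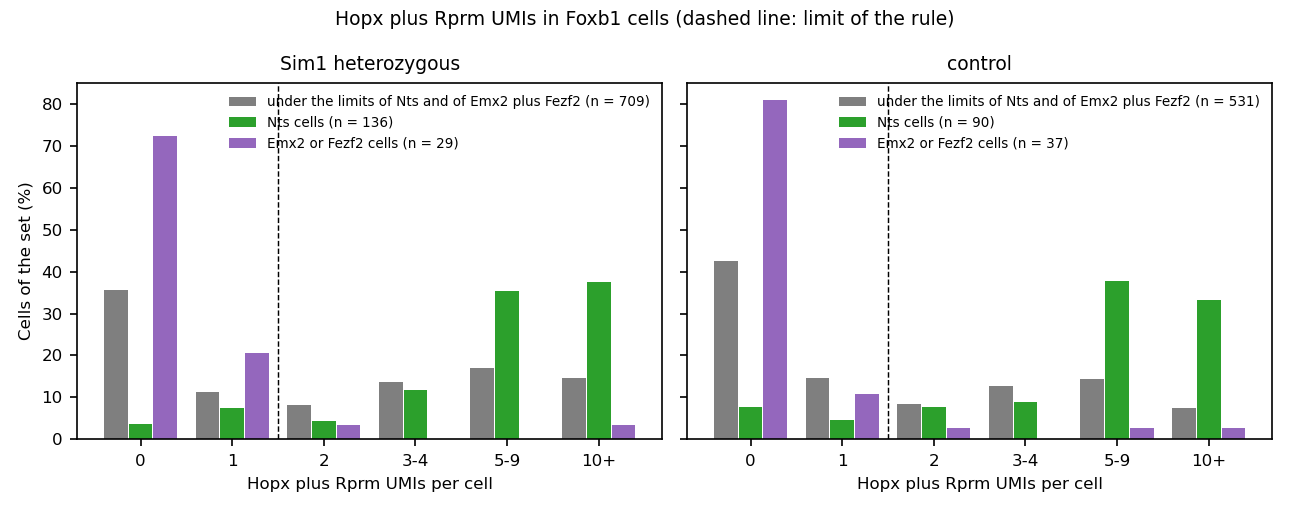
Hopx plus Rprm UMIs per cell (x axis, binned) as a share of each set of Foxb1 cells (y axis, %), Sim1 heterozygous library on the left and control library on the right. Grey bars are the cells under the Nts and the Emx2 plus Fezf2 limits, of which those right of the dashed line are the members. Nts cells (green) mostly lie right of the line, with 89.0% of 136 cells in the Sim1 heterozygous library and 87.8% of 90 in the control library at 2 or more.

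Rprm was not particular to the members. Of the Nts cells, 121 of 136 in the Sim1 heterozygous library (89.0%, exact 95% interval 82.5 to 93.7) and 79 of 90 in the control library (87.8%, 79.2 to 93.7) also had at least 2 Hopx plus Rprm UMIs. Rprm averaged 2682 UMIs per 1000000 UMIs (CPM) in members and 2908 in Nts cells of the Sim1 heterozygous library, against 2609 and 3278 CPM in the control library. Emx2 or Fezf2 cells passed the same limit in 2 of 29 cells (Sim1+/-) and 3 of 37 (control). Cells without Foxb1 passed it in 13.5% (Sim1+/-) and 13.2% (control) of cells, and cells rich in Avp or Oxt (at least 10 UMIs of the 2 summed) in 3 of 28 (Sim1+/-) and 16 of 130 (control). RNA free in the droplets can give such UMIs, and its part in the membership was not tested.

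The markers given with the label were Foxb1, Hopx and Rprm, which the rule used, and Epha7, Onecut2 and Nkx2-1, which it did not use. Foxb1 overlaps B230323A14Rik on the opposite strand, which had 632 UMIs in members against 3358 for Foxb1. Foxb1 itself reached 2215 CPM in members of the Sim1 heterozygous library and 2412 CPM in those of the control library, levels that the rule helped to set. Epha7, an ephrin receptor, was at 221 CPM (Sim1+/-) and 199 CPM (control) in members, against 125 CPM (Sim1+/-) and 137 CPM (control) in the other Foxb1 cells. Onecut2, a transcription factor of the cut-homeobox class, was at 159 CPM (Sim1+/-) and 270 CPM (control) in members, against 117 CPM (Sim1+/-) and 144 CPM (control). Nkx2-1, a factor of the ventral hypothalamus, was at 197 CPM (Sim1+/-) and 185 CPM (control) in members, against 156 CPM (Sim1+/-) and 157 CPM (control). By CPM, Epha7, Onecut2 and Nkx2-1 were each somewhat higher in members in both libraries, but by less than 2-fold. After cells were thinned to equal depth, Nkx2-1 was found in 15.69% of control members and 15.75% of other control Foxb1 cells. In the Sim1 heterozygous library these shares were 16.4% and 14.2%. Foxb1 cells that met the other limits but had no Hopx or Rprm UMI had Onecut2 at 153 CPM (Sim1+/-) and 193 CPM (control). Against these cells, members of the Sim1 heterozygous library were hardly higher in Onecut2.

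Members carried glutamatergic and mammillary markers and few of other cell types. Lhx1, a LIM-homeodomain factor of the mammillary nucleus, was at 930 CPM (Sim1+/-) and 902 CPM (control). Slc17a6, the vesicular glutamate transporter, was at 874 CPM in the Sim1 heterozygous library and 705 CPM in the control library. Gad1 had 0 UMIs in both libraries, and Slc32a1 was found in 0 members (Sim1+/-) and 1 (control). Gad2 had 3 UMIs (Sim1+/-) and 4 (control) in members, against 16 (Sim1+/-) and 2 (control) in other Foxb1 cells. Of 9 GABAergic genes, 7 had no UMI in members of the Sim1 heterozygous library and 5 in those of the control library. These 9 genes summed to 19.2 CPM in members and 40.4 CPM in other Foxb1 cells of the Sim1 heterozygous library. In the control library the sums were 33.2 and 27.4 CPM, so members were not lower there. All cells that were not members were at 151 CPM (Sim1+/-) and 110 CPM (control). Astrocyte and radial glia genes, 15 without Hopx, summed to 227 CPM in members and 248 CPM in other Foxb1 cells of the Sim1 heterozygous library, and to 255 and 234 CPM in the control library. Of these, Aqp4 had 0 UMIs in members of the Sim1 heterozygous library and 11 UMIs in 2 members of the control library. Doublets were not removed, and their part in this was not tested.

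Members made up a larger share of the Sim1 heterozygous library. They were 376 of 2454 cells (15.3%, exact 95% interval 13.9 to 16.8), against 228 of 2806 control cells (8.13%, 7.14 to 9.20), a ratio of 1.89 (1.60 to 2.23). All Foxb1 cells were also a larger share, 35.6% in Sim1+/- against 23.4% in control, a ratio of 1.52 (1.37 to 1.68). Within Foxb1 cells members were 43.0% (39.7 to 46.4) in the Sim1 heterozygous library and 34.7% (31.0 to 38.4) in the control library, a ratio of 1.24 (1.05 to 1.47). Nts cells had a ratio of 1.73 (1.31 to 2.28) among all cells, and Emx2 or Fezf2 cells 0.896 (0.532 to 1.498). These intervals cover counting error only, and the tdTomato sort can set such shares. A weaker limit of 1 Hopx plus Rprm UMI gave 1.13 (0.971 to 1.31) within Foxb1 cells, an interval that includes 1.

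**Figure D2:**
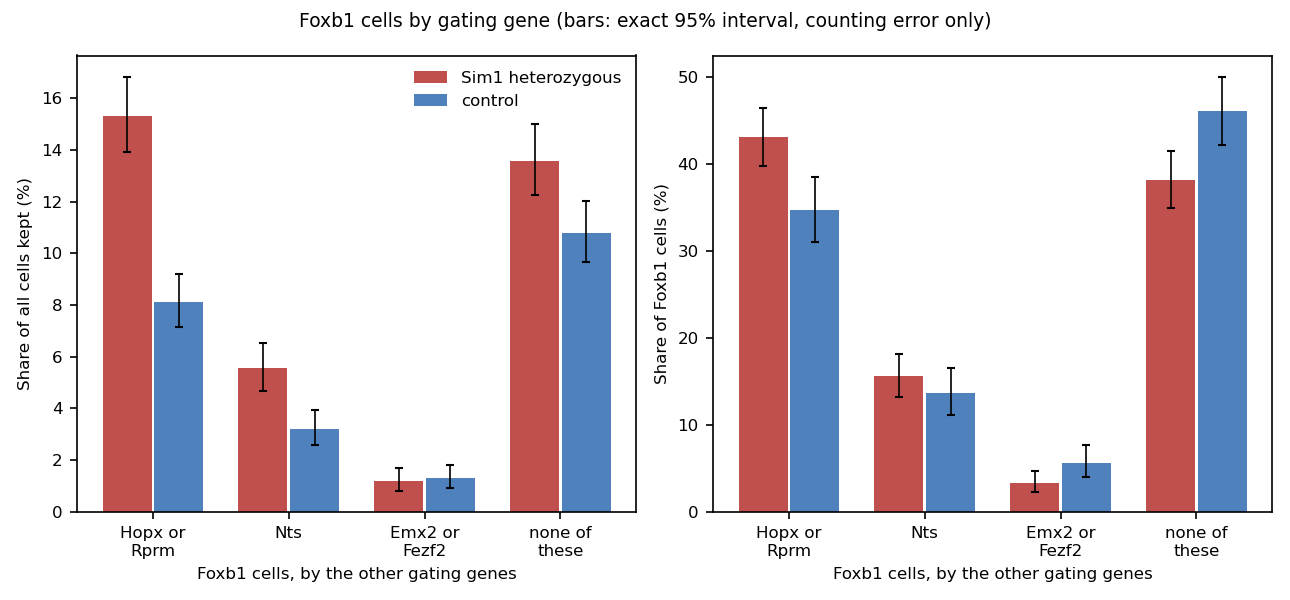
Share of all kept cells (left) and of Foxb1 cells (right), in %, for members, Nts cells, Emx2 or Fezf2 cells and remaining Foxb1 cells. Bars are the Sim1 heterozygous library (red, left of each pair) and the control library (blue); lines are exact 95% intervals of counting error, with 15.3% and 8.13% for members among all cells.

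Depth was similar but not equal. The median member had 2206 UMIs in the Sim1 heterozygous library and 1772.5 in the control library, against 2040 (Sim1+/-) and 1903.5 (control) in other Foxb1 cells. After each cell was thinned to 1000 UMIs and the rule reapplied, members were 208 of 1704 cells (12.2%, Sim1+/-) and 127 of 2442 cells (5.20%, control), and 44.6% (Sim1+/-) and 32.6% (control) of the Foxb1 cells found that way. Thinning left out 750 (Sim1+/-) and 364 (control) shallower cells. The direction was the same with thinned counts, and the ratio among all cells was larger, at 2.35.

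Against the other Foxb1 cells, the members differed in few genes. Of 7231 genes with at least 30 UMIs over both cell sets in each library, gating genes left out, 10 were at least 2-fold higher in members in both libraries (0.138%) and 25 at least 2-fold lower (0.346%). At 1.5-fold these numbers were 64 (0.885%) and 80 (1.11%). With cells thinned to 1000 UMIs, which left 2701 genes over the minimum, 5 were at least 2-fold higher and 0 at least 2-fold lower. The median log2 ratio over all tested genes was 0.01 in the Sim1 heterozygous library and 0.02 in the control library. Because the rule chose cells by measured counts in the same libraries, these differences are a description and were not tested. Log2 ratios below use a pseudocount of 1 UMI, and the genes named were ranked by the smaller of the 2 libraries' ratios.

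The genes higher in members were led by Myo5b, a class V myosin that moves recycling endosomes. It was at 84.8 CPM in members of the Sim1 heterozygous library against 16.2 CPM in other Foxb1 cells, and at 62.2 against 18.3 CPM in the control library, for log2 ratios of 2.34 (Sim1+/-) and 1.74 (control). Tmem132c, a transmembrane protein gene, was at 58.5 CPM (Sim1+/-) and 62.2 CPM (control) in members against 20.2 CPM (Sim1+/-) and 20.3 CPM (control). Kitl, the ligand of the Kit receptor, had log2 ratios of 1.75 (Sim1+/-) and 1.21 (control). Kitl rested on few cells, with 42 members of the Sim1 heterozygous library and 14 of the control library holding its UMIs. Prokr2, a receptor of prokineticins, was at 124 CPM (Sim1+/-) and 106 CPM (control) in members against 55.0 CPM (Sim1+/-) and 41.6 CPM (control) (log2 1.16 in Sim1+/- and 1.34 in control), and was found in 25.5% (Sim1+/-) and 18.4% (control) of members. Gpr83, an orphan-type receptor, had ratios of 1.30 (Sim1+/-) and 1.03 (control) at full depth, but -0.43 (Sim1+/-) and -0.18 (control) after thinning to 1000 UMIs. In the control library its full-depth ratio rested on 15 UMIs in members and 15 in other Foxb1 cells.

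Others in this group were Brinp2, Slitrk6, Tshz2 and Cartpt. Brinp2 was at 232 CPM (Sim1+/-) and 185 CPM (control) in members against 113 CPM (Sim1+/-) and 90.4 CPM (control) in other Foxb1 cells. The remaining Foxb1 cells were at 86.6 CPM (Sim1+/-) and 72.0 CPM (control). Nts cells and Emx2 or Fezf2 cells together therefore had more Brinp2 than the other Foxb1 cells as a whole. Slitrk6, a synaptic adhesion protein, was at 77.7 CPM (Sim1+/-) and 80.9 CPM (control) in members against 38.0 CPM (Sim1+/-) and 38.6 CPM (control). Tshz2, a zinc-finger homeobox gene, was at 193 CPM (Sim1+/-) and 346 CPM (control) against 101 CPM (Sim1+/-) and 160 CPM (control). Cartpt, the precursor of the CART peptides, was at 503.5 CPM (Sim1+/-) and 394 CPM (control) against 252 CPM (Sim1+/-) and 218 CPM (control), with a log2 ratio of 1.00 (Sim1+/-) and 0.85 (control). Cartpt was found in 52.1% (Sim1+/-) and 39.5% (control) of members, against 28.5% (Sim1+/-) and 24.9% (control) of other Foxb1 cells. Of the Avp or Oxt-rich cells, with median depths of 2209.5 UMIs (Sim1+/-) and 2336 UMIs (control), 42.9% of 28 (Sim1+/-) and 16.2% of 130 (control) also held a Cartpt UMI. At 1000 UMIs per cell the shares with Cartpt were 35.3% (Sim1+/-) and 28.9% (control) in members and 18.2% of 22 (Sim1+/-) and 12.2% of 123 (control) in Avp or Oxt-rich cells. Against the Nts cells alone Cartpt was not higher in both libraries, at 503.5 CPM in members and 491 CPM in Nts cells of the Sim1 heterozygous library, and 394 CPM in members and 575 CPM in Nts cells of the control library. The remaining named genes, with log2 ratios between 0.86 and 1.43, were Blvra, Smim8, Fam110a, Lpin1, Trp53i11 and Cdh22.

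The genes lower in members had transcription factors and adhesion or vesicle proteins among them. Cpne4, a copine that binds membranes in response to calcium, was at 7.06 CPM in members of the Sim1 heterozygous library against 29.1 CPM in other Foxb1 cells, and at 10.4 against 55.9 CPM in the control library (log2 -1.89 in Sim1+/- and -2.19 in control). Ebf3, a helix-loop-helix transcription factor, was at 13.1 CPM (Sim1+/-) and 24.9 CPM (control) against 46.9 CPM (Sim1+/-) and 92.4 CPM (control) (log2 -1.76 in Sim1+/- and -1.79 in control). Cdh4, a cadherin that joins neurons, was at 58.5 CPM (Sim1+/-) and 51.8 CPM (control) against 163 CPM (Sim1+/-) and 180 CPM (control) (log2 -1.46 in Sim1+/- and -1.75 in control). Synpr, a synaptic vesicle protein gene, had ratios of -2.68 (Sim1+/-) and -1.44 (control). Of the Synpr UMIs in other Foxb1 cells, Emx2 or Fezf2 cells held 55 of 87 (Sim1+/-) and 23 of 82 (control). Against the remaining Foxb1 cells the Synpr ratios were -1.96 (Sim1+/-) and -1.36 (control). Penk, the enkephalin precursor, had ratios to other Foxb1 cells of -2.82 (Sim1+/-) and -1.29 (control), on 4 and 6 UMIs in members of these libraries. Mef2c, Pmfbp1, Vstm2a, Ajap1, Crim1, Tln2, Lmo3 and Stxbp6 were also at least 2-fold lower in both libraries, and Crim1 overlaps Fez2 on the opposite strand (21 UMIs for Crim1 and 51 for Fez2 in members). Fgfr1 and Cx3cl1 were lower at full depth but had log2 ratios of 0.78 and 0.04 in the control library after thinning. Control members held only 5 Fgfr1 and 3 Cx3cl1 UMIs at full depth, so these thinned ratios rest on few counts.

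**Figure D3:**
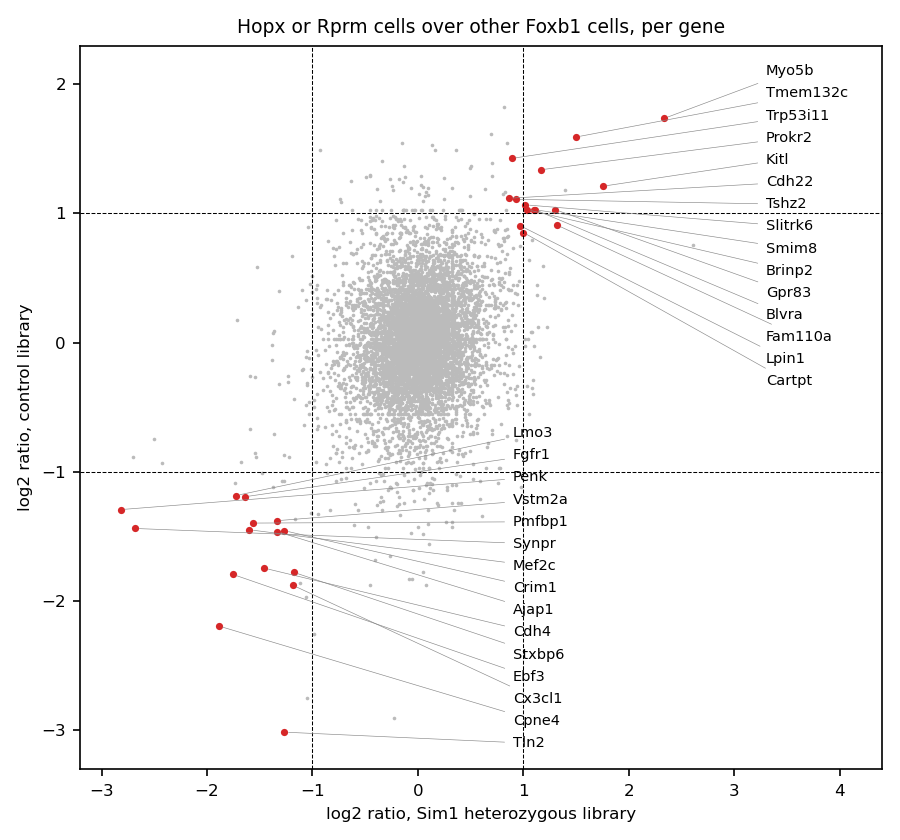
Log2 ratio of CPM in Hopx or Rprm cells over other Foxb1 cells, with the Sim1 heterozygous library on the x axis and the control library on the y axis; each point is 1 of 7231 genes and dashed lines mark 2-fold. The 15 genes higher and 15 lower that the text names are in red, with Myo5b at 2.34 and 1.74 and Cpne4 at -1.89 and -2.19.

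The neuropeptide list held genes higher and genes lower in members. Of 16 tested, 3 were at least 1.5-fold higher in members in both libraries (Cartpt, Npy and Pnoc, the nociceptin precursor) and 4 lower (Gal, Nxph1, Penk and Pmch), beside 0.885% of all tested genes higher and 1.11% lower. Its median log2 ratio was 0.05 (Sim1+/-) and 0.00 (control), beside 0.01 (Sim1+/-) and 0.02 (control) over all genes. Npy, the neuropeptide Y gene, had 175 UMIs in 62 members of the Sim1 heterozygous library and 52 UMIs in 25 members of the control library. Its log2 ratio to other Foxb1 cells was 2.61 in the Sim1 heterozygous library and 0.76 in the control library, and 10 cells held 44.6% (Sim1+/-) and 67.3% (control) of its UMIs in members. Npy was at 177 CPM in members and 48.8 CPM in Nts cells of the Sim1 heterozygous library, but at 108 CPM in members and 163 CPM in Nts cells of the control library. Gal, the galanin precursor, was at 40.4 CPM (Sim1+/-) and 93.3 CPM (control) in members against 106 CPM (Sim1+/-) and 154 CPM (control) in other Foxb1 cells. Of the Gal UMIs in other Foxb1 cells, Emx2 or Fezf2 cells held 41 of 131 (Sim1+/-) and 63 of 152 (control). For Pmch, 1 of the other Foxb1 cells held 37 of 61 UMIs (Sim1+/-), and 1 held 88 of 109 (control). Members held 23 Pmch UMIs (Sim1+/-) and 7 (control). Against the remaining Foxb1 cells, 3 of 14 tested neuropeptide genes were at least 2-fold higher in both libraries and 0 lower. Over all tested genes these shares were 0.163% and 0.31%.

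The counts of other lists past 1.5-fold stand beside the same 0.885% higher and 1.11% lower of all tested genes. Among 8 mammillary and posterior factors tested, 1 (Nkx2-4) was lower by 1.5-fold. Among 13 glutamatergic genes, 2 (Gria3 and Grm5, glutamate receptor genes) were lower. Among 27 cadherins and adhesion genes, Cntn5 was higher and Cdh4 and Lrrtm1 lower. Receptors of peptides and hormones had Chrm3 and Gpr83 higher and Npy1r lower among 14. None of 22 mature neuron genes, 13 young neuron genes, 15 pan-neuronal genes and 11 Eph receptor and ephrin genes passed 1.5-fold in both libraries, in either direction. Of the mature neuron genes 1 was above 0 in both libraries and 13 below, with medians of -0.09 (Sim1+/-) and -0.18 (control). Of the young neuron genes 8 were above and 2 below, with medians of 0.05 (Sim1+/-) and 0.08 (control). The median over all tested genes was 0.01 (Sim1+/-) and 0.02 (control). The share of all genes above or below 0 in both libraries was not counted, so these sign counts have no background.

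Against the Nts cells alone, a contrast added after values were seen, 7 of 4654 genes were at least 2-fold higher in members in both libraries (0.15%) and 5 lower (0.107%). Ap1s2, a clathrin adaptor subunit gene, was at 254 CPM (Sim1+/-) and 317 CPM (control) in members against 70.8 CPM (Sim1+/-) and 77.2 CPM (control) in Nts cells. Chodl, which encodes chondrolectin, was at 92.8 CPM (Sim1+/-) and 91.3 CPM (control) against 26.9 CPM (Sim1+/-) and 8.58 CPM (control). Sall3, a zinc-finger factor, was also higher. Alcam, a cell adhesion molecule, was lower, at 247 CPM (Sim1+/-) and 197 CPM (control) in members against 571 CPM (Sim1+/-) and 596 CPM (control) in Nts cells, as were Cdh4, Lrrn3, Gria3 and Pam. Myo5b was at 84.8 CPM (Sim1+/-) and 62.2 CPM (control) in members against 26.9 CPM (Sim1+/-) and 38.6 CPM (control) in Nts cells.

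The Emx2 or Fezf2 cells, a contrast also added after values were seen, were further from the members, with 79 of 4136 genes at least 2-fold higher (1.91%) and 40 lower (0.967%). Nrp2, a semaphorin receptor, was at 622 CPM (Sim1+/-) and 404 CPM (control) in members against 52.3 CPM (Sim1+/-) and 39.5 CPM (control) in these cells. Cartpt was at 503.5 CPM (Sim1+/-) and 394 CPM (control) against 37.4 CPM (Sim1+/-) and 0 CPM (control), and was at least 16.6-fold higher in control members against a floor of 3 UMIs. Myo5b, Sox5 and Adarb2 had no UMI in the Emx2 or Fezf2 cells of either library, which is a difference of at least 3.598-fold to 4.45-fold in the Sim1 heterozygous library and at least 2.62-fold to 3.67-fold in the control library. Bcl11b (log2 -3.89 in Sim1+/- and -3.13 in control), Nkx2-4 (-3.05 in Sim1+/- and -3.58 in control), Nxph1, Cdh4, Synpr, Gal and Hs3st4 were lower in members. This comparison rests on 29 (Sim1+/-) and 37 (control) Emx2 or Fezf2 cells.

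Against the remaining Foxb1 cells, which had at most 1 Hopx or Rprm UMI, 10 of 6133 genes were at least 2-fold higher in members (0.163%) and 19 lower (0.31%). Cartpt, Npy, Brinp2, Hs6st2, Bdnf, Myo5b and Prokr2 were higher. Bdnf, the brain-derived neurotrophic factor, was at 247 CPM (Sim1+/-) and 185 CPM (control) in members against 117 CPM (Sim1+/-) and 83.2 CPM (control). Against all other Foxb1 cells Bdnf was not 1.5-fold higher in both libraries. The remaining Foxb1 cells held 81 of the 249 Bdnf UMIs of other Foxb1 cells (Sim1+/-) and 52 of 133 (control). The rest were in Nts cells and Emx2 or Fezf2 cells. Ebf3, Pmfbp1, Mef2c, Lmo3 and Dab1 were lower, and Dab1, which encodes the adaptor of the reelin pathway, was at 20.2 CPM (Sim1+/-) and 49.8 CPM (control) against 76.5 CPM (Sim1+/-) and 147 CPM (control).

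**Figure D4:**
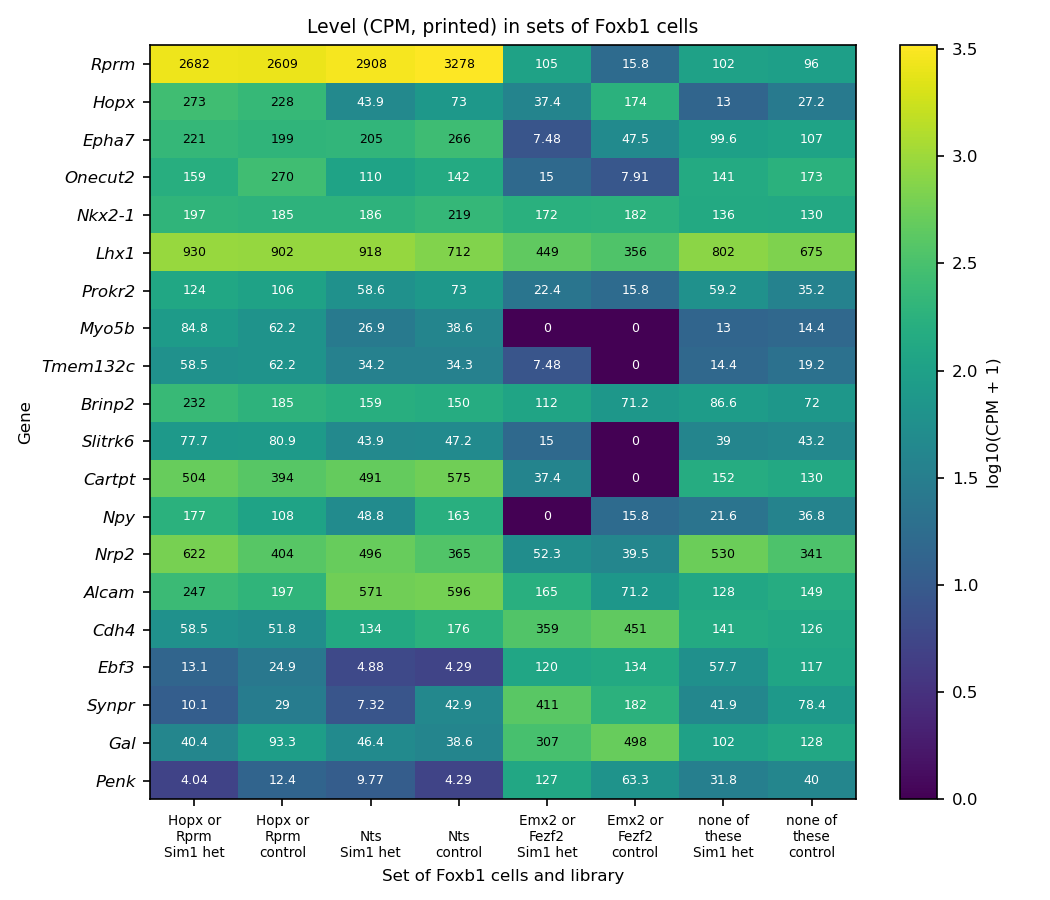
Level in CPM (numbers in the cells; colour is log10 of CPM plus 1) of 20 genes in members, Nts cells, Emx2 or Fezf2 cells and remaining Foxb1 cells, Sim1 heterozygous column left of the control column in each pair. Rprm is above 2600 CPM in members and Nts cells and at or below 105 CPM elsewhere, while Ebf3, Synpr, Gal and Penk are highest in the Emx2 or Fezf2 cells.

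Several levels differed with the number of Hopx and Rprm UMIs per cell. In the Sim1 heterozygous library Cartpt was at 115 CPM in cells with 0 Hopx plus Rprm UMIs, 264 with 1, 280 with 2, 464 with 3 or 4 and 548 with 5 or more. In the control library it was at 98.7, 220, 355, 292 and 460 CPM. Ebf3 ran the other way, at 63.2, 41.1, 27.1, 17.6 and 9.86 CPM in the Sim1 heterozygous library and at 129, 81.7, 111, 0 and 7.74 CPM in the control library, where the step to 2 UMIs rested on 10 UMIs in 45 cells. Other genes differed between cells with 1 and 2 UMIs, on few counts. Brinp2 was at 93.9 CPM with 1 and 172 CPM with 2 in the Sim1 heterozygous library, and at 81.7 CPM with 1 and 166 CPM with 2 in the control library. Epha7 was at 70.4 CPM with 1 and 172 CPM with 2 in the Sim1 heterozygous library, on 12 and 19 UMIs, and at 75.4 CPM with 1 and 133 CPM with 2 in the control library, on 12 UMIs each. With 0 UMIs Epha7 was at 109 CPM (Sim1+/-) and 118 CPM (control), above the cells with 1, so it did not rise steadily. Onecut2 was at 153 CPM with 0, 106 CPM with 1 and 90.4 CPM with 2 (Sim1+/-), and at 193, 113 and 111 CPM (control). With 3 or 4 it was at 112 CPM (Sim1+/-) and 202 CPM (control), and with 5 or more at 182 and 360 CPM. Onecut2 thus did not rise steadily either. Prokr2 was at 93.9 CPM with 1 and 63.3 CPM with 2 (Sim1+/-), and at 50.3 and 66.6 CPM (control). Members with 5 or more UMIs were also deeper, with median UMIs of 2803 (Sim1+/-) and 1844 (control).

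Cells with Hopx only were few. The 6 (Sim1+/-) and 10 (control) cells with at least 2 Hopx UMIs and no Rprm were set against cells with at least 2 Rprm UMIs and no Hopx. Gal was at 343 CPM (Sim1+/-) and 749 CPM (control) in them against 42.1 CPM (Sim1+/-) and 72.9 CPM (control), on 8 UMIs (Sim1+/-) and 17 UMIs (control). Nrp2 had 0 UMIs (Sim1+/-) and 1 UMI (control) in Hopx-only cells, against 405 (Sim1+/-) and 150 (control) in Rprm-only cells. Cartpt had 0 (Sim1+/-) and 1 (control), against 287 (Sim1+/-) and 146 (control). Syt4 and Pou3f3 were higher and Alcam, Cdh11, Calb1 and Pde1c lower. All of these rest on 17 UMIs or fewer on the Hopx side. In the Sim1 heterozygous library 1 of the 6 Hopx-only cells held 11502 of the 23339 UMIs of that set.

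In cells with at least 2 Rprm UMIs, those that also had a Hopx UMI were compared with those that had none, also after values were seen. Npy was at 321 CPM (Sim1+/-) and 220 CPM (control) with Hopx against 96.1 CPM (Sim1+/-) and 82.0 CPM (control) without (log2 1.73 in Sim1+/- and 1.43 in control). Tshz2, Bcl11a and Serpini1 were higher with Hopx. Id2, an inhibitor of helix-loop-helix factors, was at 28.4 CPM (Sim1+/-) and 9.15 CPM (control) with Hopx against 87.7 CPM (Sim1+/-) and 91.1 CPM (control) without. Tac1, the substance P precursor, was at 128 CPM (Sim1+/-) and 101 CPM (control) against 236 CPM (Sim1+/-) and 249 CPM (control).

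Against all cells that were not members, 115 of 11675 genes were at least 2-fold higher in members (0.985%) and 225 lower (1.93%). Myo5b, Prokr2, Nmu, Tmem132c, Slitrk6, Cpne9, Ifit2, Gpr83 and B3gnt9 were among the genes that led this list. Nmu, the neuromedin U precursor, was at 22.2 CPM (Sim1+/-) and 24.9 CPM (control) in members against 5.46 CPM (Sim1+/-) and 4.30 CPM (control). B3gnt9 overlaps D230025D16Rik on the opposite strand, with 30 and 28 UMIs in members, and reads of the pair cannot be told apart because the use of strand is not given.

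The library comparison within members gave 202 of 7395 genes at least 2-fold higher in the Sim1 heterozygous library (2.73%) and 180 at least 2-fold lower (2.43%). At 1.5-fold these were 775 (10.5%) and 585 (7.91%), and the median log2 ratio over all tested genes was 0.02. With thinned cells 80 of 2535 genes were at least 2-fold higher and 40 lower. In the other Foxb1 cells of the same 2 libraries the 2-fold counts were 182 of 8972 (2.03%) and 266 (2.96%). Sim1, the gene lacking a copy, was at 72.7 CPM in members of the Sim1 heterozygous library and 83.0 CPM in those of the control library, a log2 ratio of -0.21 (-0.77 to 0.40). The counted 3' end may lie outside the deleted part, so this does not check the genotype. Irx5 had 1 UMI in members of the Sim1 heterozygous library and 0 in those of the control library.

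Hspa8 had the highest ratio of the named genes between libraries. It encodes a constitutive heat shock cognate chaperone, lies at chr9:40800984-40810087, and had 287 UMIs in members of the Sim1 heterozygous library and 5 in those of the control library (290 against 10.4 CPM, log2 4.55, 3.56 to 6.44). The difference was of the same order in other Foxb1 cells (4.36) and in all cells that were not members (3.95). Hspa8 has near-identical pseudogene copies, so its counts are uncertain. Cwc22, a splicing factor gene, had a log2 ratio of 1.77 (1.44 to 2.15) and 1.64 in other Foxb1 cells, and Dgkb, a diacylglycerol kinase, was at 668 against 234 CPM (log2 interval 1.22 to 1.81). Thy1, a neuronal surface protein, was at 140 against 43.6 CPM (log2 1.63), and Neto1, a kainate receptor auxiliary subunit, at 57.5 against 14.5 CPM (log2 1.82). Nlgn3, a neuroligin, had a ratio of 1.83 in members and 0.20 in other Foxb1 cells; the difference between these was not tested. Cd44, Trank1, Wdr44 and Hmgb1 were also higher, and Hmgb1 overlaps Uspl1 on the opposite strand. Nlgn3 and Wdr44 lie on the X chromosome, and the part of sex in their ratios was not tested.

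Gh had the lowest ratio of the named genes. It had 0 UMIs in members of that library and 93 UMIs in 74 members of the control library, at least 63.7-fold lower against a floor of 3 UMIs. Gh is the growth hormone gene of the pituitary, not of neurons, and 375 UMIs were found in 141 of the other Foxb1 cells of the control library. Its 6-gene pituitary list summed to 4.04 CPM in members of the Sim1 heterozygous library and 201 CPM in those of the control library. Avp was at 38.3 against 112 CPM in members (log2 -1.54), with no member above 2 UMIs in either library. The part of free RNA in these values was not tested.

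Cd24a, a surface protein of young neurons, was at 115 CPM in members of the Sim1 heterozygous library and 324 CPM in those of the control library, for a log2 ratio of -1.49 (-1.85 to -1.13), and the ratio was -1.24 in other Foxb1 cells. Cdkn1c, an inhibitor of cyclin-dependent kinases, had -1.31 (-1.76 to -0.86), and -0.93 in other Foxb1 cells. Nrxn3, a neurexin, was at 33.3 against 102 CPM (log2 -1.60), and Tmem26 had 11 against 24 UMIs (log2 -2.10). Mrps6, Plcb1, St7 and Zfp804a were also lower, with St7 at -1.91 in members and 0.19 in other Foxb1 cells, a difference that was not tested.

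In several gene groups more genes passed 1.5-fold upward than downward in the Sim1 heterozygous library. All 13 tested glutamatergic genes were above 0, and 4 (among them Gria4, Grik2 and Grm5) were at least 1.5-fold higher, with a group median of 0.34. Of 26 ion channel genes 5 (Kcnh7, Kcnj3, Scn1a, Scn3b and Scn8a) were higher by 1.5-fold and none lower, with 18 above 0 and 8 below. Of 16 axon guidance genes 4 (Nrp2, Plxnc1, Robo1 and Slit2) were higher and none lower, but 8 of the 16 were above 0 and 8 below, with a median of 0.09. Of 22 mature neuron genes, Nefl, Nefm, Slc12a5 and Thy1 were higher and Cplx2 and Syt4 lower, with 17 above 0 and 5 below. Of 15 pan-neuronal genes 0 passed 1.5-fold in either direction, with a median of -0.13, 6 above 0 and 9 below. The counts past 1.5-fold stand beside 10.5% of all tested genes higher and 7.91% lower. The share of all tested genes above 0 was not counted, so the sign counts have no background. The median log2 ratio over all tested genes was 0.02.

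Of 13 young neuron genes 0 were higher and 2 (Cd24a and Sox11) lower by 1.5-fold in the Sim1 heterozygous library, with a median of -0.27, 4 above 0 and 9 below. Of 9 genes of cell-cycle exit and p53, 0 were higher and 3 (Cdkn1c, Mdm2 and Rb1) lower, with a median of -0.04, 4 above 0 and 5 below. Over all tested genes 7.91% were lower by 1.5-fold, and the median was 0.02. Calb1, the calcium buffer calbindin, was at 689 CPM in members of the Sim1 heterozygous library and 421 CPM in those of the control library (log2 0.71, 0.48 to 0.94), with a ratio of 1.23 in other Foxb1 cells. Onecut2 had a log2 ratio of -0.76 (-1.10 to -0.41) in members and -0.30 in other Foxb1 cells. Cartpt had 0.35 (0.11 to 0.60), and Rprm itself 0.04.

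**Figure D5:**
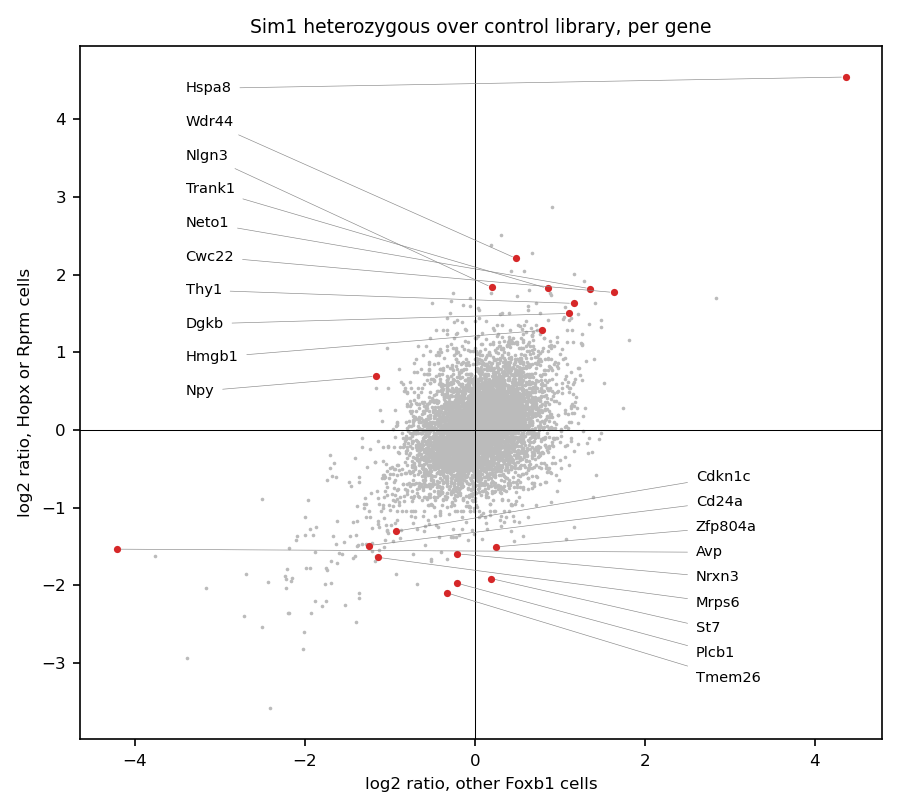
Log2 ratio of the Sim1 heterozygous over the control library in other Foxb1 cells (x axis) and in Hopx or Rprm cells (y axis), 1 point per gene; named genes are in red. Hspa8 lies at 4.36 and 4.55; Gh, at 0 UMIs in the Sim1 heterozygous library, and Cd44, with too few UMIs in other Foxb1 cells, are left out.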

How the data were processed

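Single cells were measured by Drop-seq in 1 Sim1 heterozygous and 1 control library, each a pool. The authors deposited raw UMI counts per gene and barcode, 1 table per library and a merged one, which held identical counts; the merged table had 24905 genes and 5283 barcodes and no barcode sequence shared by the libraries. Per the submitters' processing notes, bcl2fastq, Picard, STAR 2.6.0b, the mm10 build and Seurat 3 were used; for the counter, its annotation, its handling of strand and the choice of barcodes, nothing was found (not given in the sources used here). Gene types and positions came from GENCODE M21, which matched 94.3% of symbols. Depth was 5397693 UMIs in 2476 barcodes of the Sim1 heterozygous library and 6525080 UMIs in 2807 barcodes of the control library.

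UMIs were summed over the cells of each set and library and divided by their total (CPM). Ratios used a pseudocount of 1 UMI and conditional exact binomial 95% intervals, shares Clopper-Pearson intervals; these cover counting error only, since UMIs of a cell are not independent. Thinning used 1000 UMIs and seed 7. Genes needed 30 UMIs over both cell sets in each library (20 for Hopx-only against Rprm-only cells), or 30 over both libraries for the library comparison. Calculations used scipy 1.17.1, numpy 2.4.6 and pandas 2.3.3 under Python 3.11.15, and figures matplotlib 3.10.9. The interval calculation was tested on simulated data; its first single simulated draw covered too few of the genes lowered to 0.5-fold, and 50 pooled draws were then used. These fell just short of 95% coverage at 0.25-fold, and the criterion was then changed to a binomial test against 95%.

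The members and gene lists were chosen with earlier results of these data known. Named genes were the 15 higher and 15 lower than in other Foxb1 cells by the smaller ratio of the 2 libraries, 10 and 10 for the library comparison by the interval bound nearest 0, 6 and 6 for Hopx against Rprm cells, 10 against all other cells, and members of each list. Mitochondrial, ribosomal, Y-linked, haemoglobin and unnamed genes and pseudogenes were left out of these rankings. Of the X-linked genes only Xist, Tsix, Kdm5c, Kdm6a, Eif2s3x and Ddx3x were left out. Other X-linked genes stayed in, among them Nlgn3, Wdr44, Ap1s2, Gria3 and Hs6st2. Some genes that this rule names are not reported here. Doublets were not removed.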

Additional observations from a re-analysis of the deposited data

Results flagged for a closer look

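In 3 of 6403 genes, Fxyd2, Tdrkh and Tmem138, members were at least 1.5-fold higher than other Foxb1 cells in 1 library and at least 1.5-fold lower in the other, with both counting intervals clear of 0 on the log2 scale. Smaller differences of opposite sign were not counted. Fxyd2 had a log2 ratio of members over other Foxb1 cells of 0.98 in the Sim1 heterozygous library and -1.12 in the control library, Tdrkh -0.92 (Sim1+/-) and 1.49 (control), and Tmem138 -0.73 (Sim1+/-) and 1.09 (control). By the same limits, the Sim1 heterozygous over control ratio had opposite signs in members and in other Foxb1 cells for 4 of 6521 genes. Npy was at 0.69 in members and -1.16 in other Foxb1 cells, Btbd7 at -0.74 in members and 0.67 in the others, Tdrkh at -1.25 in members and 1.16 in the others, and Tmem138 at -0.93 in members and 0.89 in the others. Npy had 175 UMIs in members and 35 in other Foxb1 cells of the Sim1 heterozygous library, and 52 in members and 63 in other Foxb1 cells of the control library. None of these differences was tested, since each genotype has 1 library.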

How the results depend on the processing

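The share of members among all cells, 1.89 times that of the control library, was 2.45 times in cells with at least 1000 genes and 2.35 times after thinning. Genes at least 2-fold higher in members than in other Foxb1 cells numbered 10, and 6 with 3 Foxb1 UMIs, 5 in cells with 1000 genes, 6 without the 5% deepest cells, 5 after thinning, 574 with a minimum of 1 UMI and 1 with 100 UMIs. Genes lower numbered 25, and 44 with 1 Foxb1 UMI, 10 with 3, 15 with 1 Hopx plus Rprm UMI, 0 after thinning, 133 and 3 with minimums of 1 and 100 UMIs, and 9 with a pseudocount of 5. Without the Nts, Emx2 and Fezf2 limits, an alternative chosen after seeing the data, the counts were 18 and 39. Genes higher in the Sim1 heterozygous library numbered 202, and 80 after thinning, 998 and 26 with minimums of 1 and 100 UMIs, 39 with a pseudocount of 5 and 129 in members with 2 Hopx UMIs. Genes lower numbered 180, and 40, 3884 and 13 under the first 3 of these and 45 under the last. Thinning tested 2701 and 2535 genes in place of 7231 and 7395; the cause of the other changes was not tested. After thinning Gpr83 was at -0.43 (Sim1+/-) and -0.18 (control), and in the control library Fgfr1 at 0.78 and Cx3cl1 at 0.045. Of the ratios of named genes over other Foxb1 cells, 807 kept their value within the counting error, 29 moved and 4 reversed; of those between libraries 286 kept it and 14 moved. No paired analysis was possible because each genotype has 1 library. Genes under the minimum of 30 UMIs, or 20 for Hopx-only against Rprm-only cells, were not compared in the main setting. The ratios of named genes under the other settings had no such minimum. The thinned control ratios of Gpr83, Fgfr1 and Cx3cl1 can therefore rest on fewer UMIs than that.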
